A study of Mus musculus with 4 samples.

Results

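The circadian clock genes described here are Clock, Per1, Per2, Per3, Cry1, Cry2, Nr1d1, Nr1d2, Dbp and Tef, 10 of the 56980 genes in the count table. They were chosen by symbol, and each symbol matched a single row. They were read in mesenchymal stromal cells (MSCs) of adult bone marrow, from 4 male wild-type mice aged 14 weeks of an in-house inbred C57BL/6J strain. From flushed and digested femurs of each mouse, 100 cells positive for CD51 and PDGFRa and negative for the blood markers CD45 and Ter119, the endothelial CD31 and Sca1 were sorted, and a full-length cDNA library was made from polyadenylated RNA. All 4 libraries belong to a single group, so levels and their spread between mice were measured and no condition was compared. The mice of the study were kept under 12 hours of light per day, and the hour at which each mouse was killed is not given in the sources used here.

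The clock of mammalian cells is a transcriptional feedback loop. CLOCK and BMAL1 bind together to E-box sequences and activate the Per and Cry genes, whose protein products return to the nucleus and repress CLOCK and BMAL1. In a second loop, the REV-ERB receptors encoded by Nr1d1 and Nr1d2 repress, and ROR receptors activate, genes with ROR elements such as that of BMAL1. DBP and TEF are PAR bZIP factors that pass the rhythm on through D-box sequences. In the bone marrow, light-dependent release of blood stem cells has been linked to rhythmic CXCL12 in the stroma.

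Promoter sequences of RefSeq (GRCm38.p6), each reaching from 250 bases before to 50 after a transcription start, were found for 9 of the 10 genes. They were searched on both strands for the elements through which the loop feeds back. Per2 had no window and was not searched. Clock had 3 windows, and Per1 and Tef had 2 each, so these genes had more chances of a match than a single window. An E-box (CACGTG) is held by a window of 3 genes, Per1 (1 of its 2 windows), Cry1 and Tef (2 of 2), and by 7.15% of all 32851 windows. The related E-prime box (CACGTT) is held by those of Cry1, Cry2 and Nr1d1, against 4.68% of all windows. A D-box (TTATGTAA or TTACGTAA) was found for Per3 alone, where 1.06% of all windows have one, and the Per3 window holds it at 2 places. No window of these genes has a ROR element (TAGGTCA or TGGGTCA, 6.45% of all windows) or a full cAMP element (TGACGTCA, 1.79%). The windows of Clock, Nr1d2 and Dbp hold none of these letters. The motifs do not overlap each other, and a match in this short window is not a bound site.

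The stretches around these matches are shown because they hold the letters of the E-box, E-prime box or D-box. Whether any of them is bound or used in these cells was not measured. They run 5′ to 3′ on the strand of the gene and end before the transcription start of their window. The motif is in capitals (AACGTG is the E-prime box read from the other strand). The Per1 stretch belongs to 1 of its 2 starts and lies inside the annotated gene (chr11:69095217-69109960).
Per1 (chr11:69098757-69098814, plus strand): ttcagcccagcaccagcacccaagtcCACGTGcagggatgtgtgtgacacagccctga
Cry1 (chr10:85185083-85185159, minus strand): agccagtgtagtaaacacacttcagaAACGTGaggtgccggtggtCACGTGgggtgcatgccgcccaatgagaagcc
Tef, first start (chr15:81802520-81802577, plus strand): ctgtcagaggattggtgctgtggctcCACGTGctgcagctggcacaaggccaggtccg
Cry2 (chr2:92434204-92434261, minus strand): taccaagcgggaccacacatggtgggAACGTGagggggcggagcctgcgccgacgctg
Nr1d1 (chr11:98775378-98775431, minus strand): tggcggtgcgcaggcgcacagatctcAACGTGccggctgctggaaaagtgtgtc
Per3 (chr4:151044790-151044896, minus strand): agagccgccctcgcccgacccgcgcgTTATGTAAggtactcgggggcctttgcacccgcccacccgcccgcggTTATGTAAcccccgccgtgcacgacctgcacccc

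The libraries held between 22738604 and 43545349 counts on genes, and between 16109 and 18907 genes had at least 1 count, fewest in mouse 2. Levels are given in TPM, that is counts divided by the merged exon length of the gene and scaled to 1000000 per library. The genes of the sort antigens CD51 and PDGFRa, Itgav and Pdgfra, were at 12.9 to 18.1 TPM and 30.7 to 48.2 TPM in the 4 mice. Other than Pecam1, the gene of CD31, with 5 to 14 counts, markers of endothelial cells had at most 1 count in a library, and 4 of 5 macrophage markers and 2 of 3 lymphocyte markers had none. The remaining macrophage marker, Cd68, had 11, 0, 144 and 5 counts in mice 1, 2, 3 and 4. The remaining lymphocyte marker, Cd79a, had 22 counts in mouse 4 and 0 in the others. Ly6a, the gene of the Sca1 that the sort selected against, had 1, 120, 0 and 144 counts in mice 1, 2, 3 and 4, so mice 2 and 4 went against that label. CD45 transcripts (Ptprc) numbered 2, 2, 0 and 50 counts in the same order. Neutrophil markers summed to 30.7, 19.7, 4.09 and 7.84 TPM, with 261 counts of Elane in mouse 1 and none in the others. Erythroid markers reached a summed 4699 TPM in mouse 1 and 28.0 TPM in mouse 2, and osteoblast markers stood between 77792 and 168024 TPM. In such bulk samples, fewer cells that express a gene and less RNA per cell cannot be told apart.

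Of the 10 clock genes, 7 had a median above 1 TPM over the 4 mice, the cutoff for expression in the study's methods. This cutoff was passed by 22.9% of the 52125 genes with a length and by 44.2% of the 21922 protein-coding genes. Those past it were Clock, Per1, Per2, Cry1, Cry2, Nr1d1 and Nr1d2, and those under it were Per3, Dbp and Tef. The 3 just above the cutoff were Per2 at a median of 1.08 TPM, Nr1d1 at 1.58 TPM and Cry2 at 1.71 TPM, and the nearest below it was Dbp at 0.779 TPM. Only Per1 and Cry1 were above 1 TPM in every mouse, 2 of 10, where 15.4% of all genes and 30.1% of protein-coding genes were. The count was 6 without mouse 1 and without mouse 3, and 7 without mouse 2 and without mouse 4. Per2 fell below the cutoff without mouse 2 or mouse 3, Nr1d1 without mouse 1 or mouse 3, and Dbp passed it without mouse 2 or mouse 3. Per2 was also below it with the length of the longest transcript. Nr1d1, at 0 counts in mice 2 and 4, failed a minimum of 10 counts in every mouse. Dbp passed by its mean, or without the 10 highest genes in the denominator, and Per3 passed without a length.

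**Figure D1:**
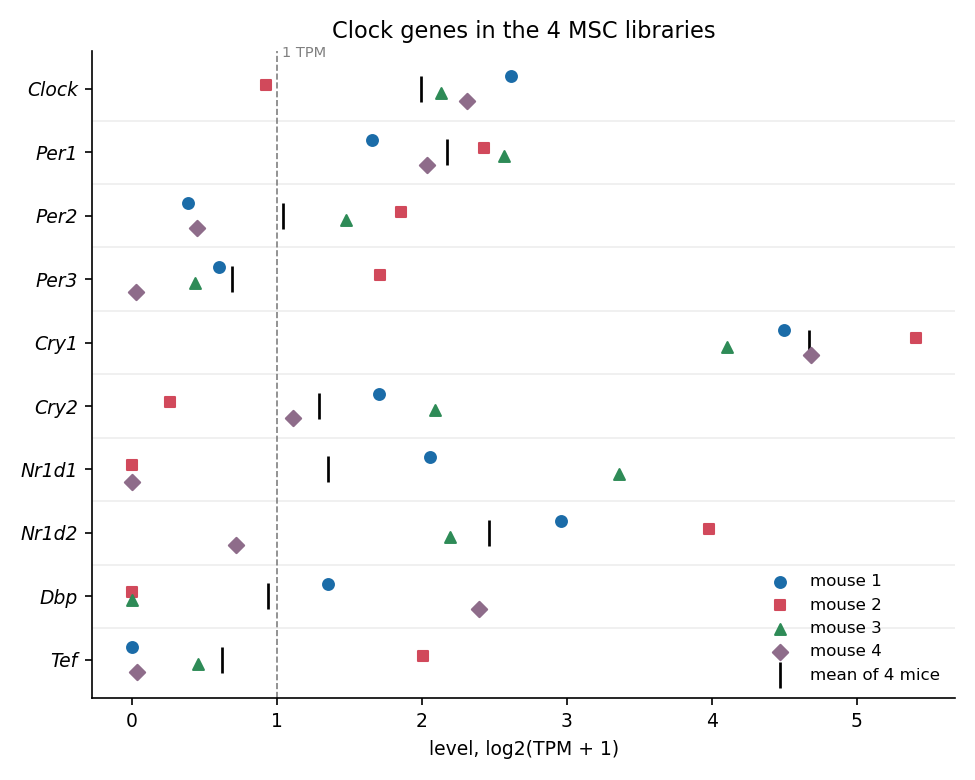
Level of each clock gene as log2(TPM + 1) (horizontal axis) in the 4 libraries, 1 marker per mouse. The black tick is the mean of the 4 log2 values and the dashed line is 1 TPM. Cry1 lies apart on the right, with 16.2 to 41.4 TPM, whereas Nr1d1, Dbp and Tef have mice at 0.

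Clock (ENSMUSG00000029238) encodes the DNA-binding partner of BMAL1. It had 1236, 137, 805 and 564 counts in mice 1, 2, 3 and 4, or 5.12, 0.897, 3.39 and 3.98 TPM. Its mean was 3.35 ± 1.78 TPM (SD, n = 4), and mouse 2 was the only mouse below 1 TPM. The highest mouse was 5.70 times the lowest.

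Among the Per genes, which encode the PERIOD repressors, Per1 was the highest and the most even. Per1 (ENSMUSG00000020893) had 213, 275, 479 and 181 counts, or 2.15, 4.39, 4.92 and 3.11 TPM, with a mean of 3.64 ± 1.25 TPM (SD, n = 4). The highest mouse was 2.29 times the lowest, the narrowest range of the 10 genes. Per2 (ENSMUSG00000055866) had 0.311, 2.62, 1.79 and 0.364 TPM, or 1.27 ± 1.13 TPM, with mice 2 and 3 above 1 TPM and mice 1 and 4 below it. Its mean was 0.821 TPM without mouse 2. Per3 (ENSMUSG00000028957) had 87, 244, 59 and 2 counts, or 0.515, 2.28, 0.355 and 0.0201 TPM. Its mean of 0.793 ± 1.01 TPM rests on mouse 2, and it was 0.297 TPM without that mouse.

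Cry1 and Cry2 encode the cryptochromes, the partners of the PERIOD proteins in repression. Cry1 (ENSMUSG00000020038) had 1270, 1538, 937 and 852 counts, or 21.6, 41.4, 16.2 and 24.7 TPM. Its mean of 26.0 ± 10.9 TPM (SD, n = 4) was the highest of the 10 genes, and its median of 23.1 TPM was above that of 93.9% of all genes with a length. Cry2 (ENSMUSG00000068742) had 251, 14, 357 and 76 counts, or 2.26, 0.199, 3.27 and 1.16 TPM, a mean of 1.72 ± 1.33 TPM. The 4 mice stood in opposite order for the cryptochromes, from mouse 2 through 4 and 1 to mouse 3 for Cry1 and the reverse for Cry2. Clock and Per2 were also in opposite order to each other, so this was not particular to the cryptochromes. With 4 mice such an order can arise by chance. Cry1 made up between 83.2% and 99.5% of the summed Cry TPM of a mouse.

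Nr1d1 and Nr1d2 encode REV-ERBα and REV-ERBβ, heme-binding receptors that repress BMAL1 transcription. Nr1d1 (ENSMUSG00000020889) had 171, 0, 494 and 0 counts, or 3.16, 0, 9.29 and 0 TPM. It was thus found in mice 1 and 3 and listed at 0 in mice 2 and 4. Mouse 3 was at least 98.5-fold higher than these, taking 3 counts in a library as the smallest detectable number. This bound, like those given below for Dbp and Tef, covers counting error only, not transcripts lost while the library was made. At the level of mouse 1, the library of mouse 4, the shallower of the pair, would have held 100 counts. Of the exonic bases of Nr1d1, 8.55% lie within Thra on the opposite strand, and Thra had between 766 and 1465 counts in every mouse. Summed erythroid markers, mostly the hemoglobin genes, were likewise higher in mice 1 and 3, with 4699 and 1573 TPM, than in mice 2 and 4, with 28.0 and 349 TPM. Klf1 was the exception in that list, with 30.6 TPM in mouse 4 against 13.4 TPM in mouse 3. Ly6a was above 1 count only in mice 2 and 4, with 8.95 and 11.6 TPM. The part of either in Nr1d1 was not tested. Nr1d2 (ENSMUSG00000021775) was found in all mice, with 647, 891, 336 and 36 counts, or 6.80, 14.8, 3.59 and 0.644 TPM. The mean of Nr1d2 was 6.46 ± 6.11 TPM (SD, n = 4), and 3.68 TPM without mouse 2. A processed pseudogene on chromosome 19, Gm5827, matches Nr1d2 over 1385 bases at 96.1% identity and had at most 2 counts in a library, so read pairs of that stretch may be missing from Nr1d2.

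Dbp and Tef, the D-box activators that carry the rhythm to output genes, were each missing from part of the libraries. Dbp (ENSMUSG00000059824) had 82, 0, 0 and 132 counts, or 1.56, 0, 0 and 4.27 TPM. Mouse 4 was at least 47.4-fold higher than mice 2 and 3. At the level of mouse 1, the library of mouse 3 would have held 80.5 counts, and that of mouse 2 51.9 counts. Dbp shares 18.0% of its exonic bases with Sphk2 on the opposite strand, and Sphk2 had 445, 0, 486 and 94 counts. Tef (ENSMUSG00000022389) had 0, 264, 51 and 2 counts, or 0, 3.02, 0.375 and 0.0246 TPM, and its level in mouse 2 was at least 139-fold that in mouse 1. The mean of Tef fell from 0.854 to 0.133 TPM without mouse 2, that of Dbp from 1.46 to 0.519 TPM without mouse 4, and that of Nr1d1 from 3.11 to 1.05 TPM without mouse 3. Dbp was above 1 TPM in mice 1 and 4, and Tef in mouse 2 alone, the library with the fewest genes, where Dbp had 0 counts. How often other gene pairs of this level fail to overlap was not counted.

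Such gaps were common among genes of this level. Among the 9 clock genes with a mean from 0.5 to 10 TPM, 4 (Per3, Nr1d1, Dbp and Tef) had under 3 counts in at least 1 library and 50 or more in another. The same held for 45.7% of all 10512 genes in this range, so the clock genes did not stand apart in it. This rule was set after the values were seen. Of those 10512 genes, 38.6% had under 3 counts in mouse 2, the library with the fewest genes, and at most 26.7% in each other mouse. Under 3 counts were found for 1, 2, 1 and 3 of the 10 clock genes in mice 1, 2, 3 and 4.

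The spread between mice was set against that of all genes in the same broad range of mean TPM. The coefficient of variation was between 34.4% for Per1 and 170% for Tef. For genes whose mean lay from 1 to 10 TPM it was typically 89.6% (the median). In that range 12.4% of genes varied less than Per1, 25% less than Clock, 42.0% less than Cry2, 49.6% less than Per2, 52.8% less than Nr1d2, 73.5% less than Dbp and 74.1% less than Nr1d1. Among genes of 10 to 100 TPM, 49.1% varied less than Cry1, and among genes of 0.5 to 1 TPM 39.9% and 52.0% varied less than Per3 and Tef. These ranges mix unlike levels, and the median fell from 131% near 1.33 TPM to 66.5% near 7.50 TPM. Against genes nearer its level, Nr1d2 at 94.5% was above the median of 66.5% and near the 75th percentile of 98.2%. Dbp at 138% was near the median of 131%, and Per2 at 89.0% was nearer the 25th percentile of 78.4%.

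**Figure D2:**
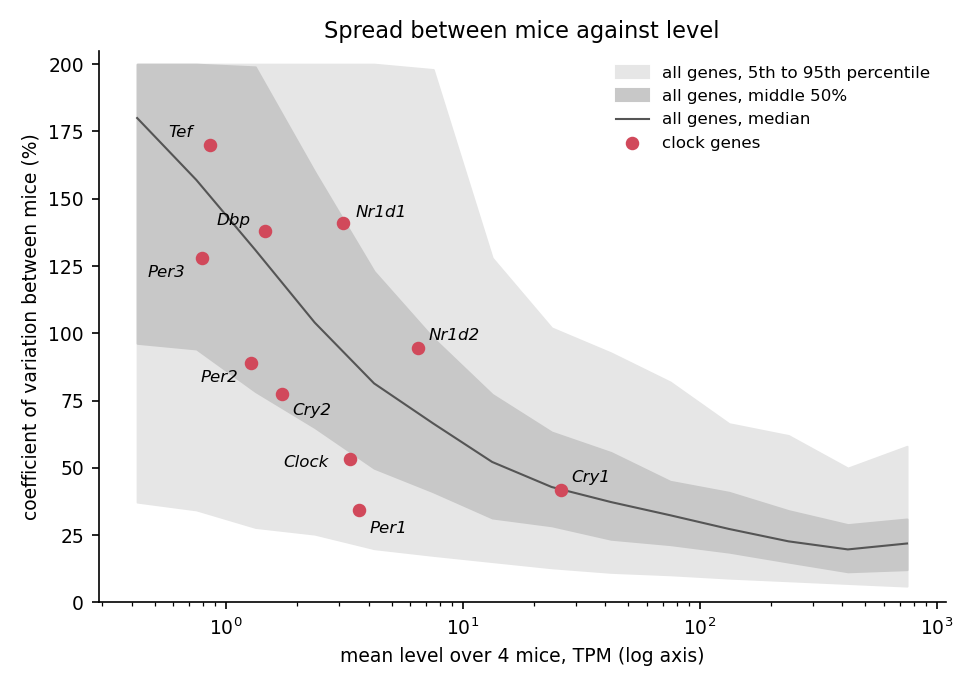
Coefficient of variation between the 4 mice (vertical axis, percent) against the mean level (horizontal log axis, TPM). The grey line is the median of all genes, with an inner and an outer band of percentiles, and red points are the 10 clock genes, of which Per1 lies lowest at 34.4% and Tef highest at 170%.

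By mean TPM the order was Cry1, Nr1d2, Per1, Clock, Nr1d1, Cry2, Dbp, Per2, Tef and Per3. Of the 9 neighbouring steps in this order, only that from Cry1 to Nr1d2 was larger than its SD, with a within-mouse difference of 2.21 ± 1.19 in log2(TPM + 1). All steps below it, from Nr1d2 to Per3, were smaller than their spread between mice.

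To compare genes with related or opposed roles, 10 pairs were examined as differences in log2(TPM + 1) within each mouse. They were tested by an exact permutation of their signs, two-sided, in which the smallest p that 4 mice can give is 0.13 (rounded), so no pair could pass 0.05. Per1 was higher than Per2 in 4 of 4 mice, by 1.27, 0.57, 1.09 and 1.59, or 1.13 ± 0.43 (SD, n = 4; exact p = 0.13, adjusted over the 10 pairs 0.25). Per1 also exceeded Per3 in every mouse, by 1.48 ± 0.70 (exact permutation p = 0.13, adjusted 0.25). The widest gap between paralogs was that of Cry1 over Cry2, with 2.80, 5.14, 2.01 and 3.57, or 3.38 ± 1.34 (exact permutation p = 0.13, adjusted 0.25). These 3 differences were larger than their SD between mice.

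The other related pairs differed by less than their SD between mice. Per2 was above Per3 in 3 of 4 mice, by 0.35 ± 0.53 on average (exact permutation p = 0.375, adjusted 0.625), and by 0.12 without mouse 3. Nr1d1 was lower than Nr1d2 in mice 1, 2 and 4 and higher in mouse 3, a mean difference of -1.11 ± 2.13 (exact permutation p = 0.50, adjusted 0.714) that shrank to -0.15 without mouse 2 and widened to -1.87 without mouse 3. Dbp was above Tef in mice 1 and 4 and below it in mice 2 and 3, by 0.31 ± 1.94 on average (exact permutation p = 0.875, adjusted 0.875). That difference was -0.03 without mouse 1 and -0.37 without mouse 4, and 1.09 without mouse 2.

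**Figure D3:**
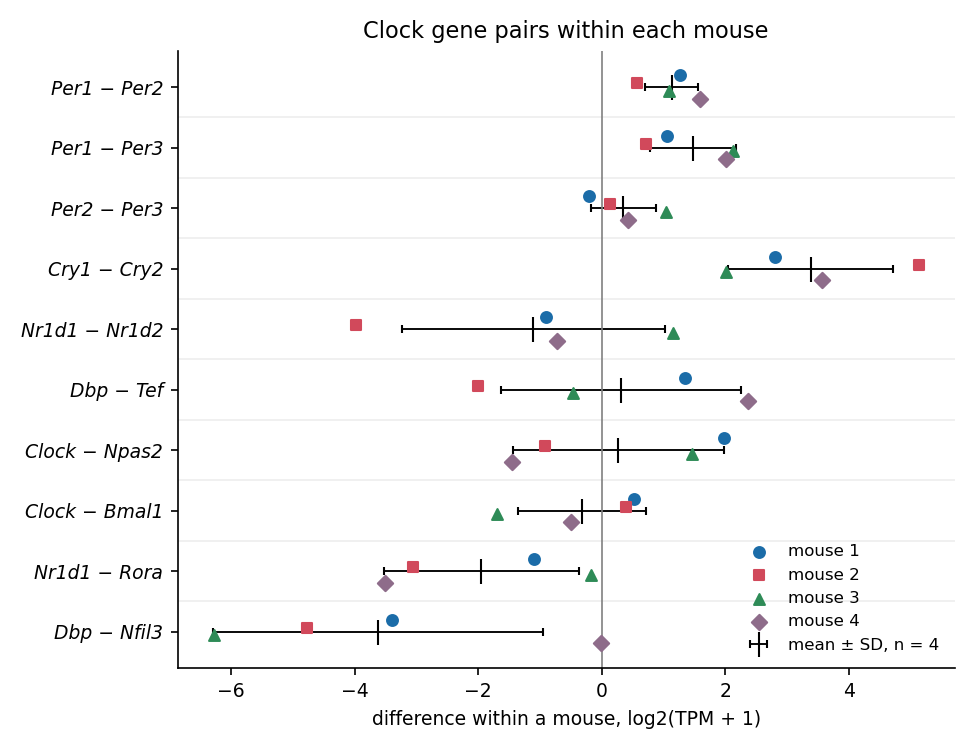
Difference between the genes of each pair within a mouse (horizontal axis, log2(TPM + 1), first gene minus second), 1 marker per mouse, with the mean ± SD of the 4 mice in black. All 4 mice lie on the same side of 0 for Per1 against Per2 and Per3, Cry1 against Cry2, Nr1d1 against Rora and Dbp against Nfil3.

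Around these genes, 11 further clock partners were read. Of them 5 (Arntl, Npas2, Rora, Nfil3 and Bhlhe40), a share near the 44.2% of protein-coding genes, had a median above 1 TPM. Npas2 was under it without mouse 2 or mouse 4, and Arntl2 passed it without mouse 1 or mouse 4. Arntl, the gene of BMAL1, had 3.26, 0.442, 13.3 and 6.06 TPM in mice 1, 2, 3 and 4, or 5.76 ± 5.50 TPM (SD, n = 4) and a mean of 3.25 TPM without mouse 3. Mouse 2 was lowest for Arntl as it was for Clock, whereas mouse 3 was highest for Arntl and mouse 1 for Clock. Clock differed from Arntl by -0.32 ± 1.03 in log2(TPM + 1), above it in mice 1 and 2 and below it in mice 3 and 4 (exact permutation p = 0.750, adjusted 0.833), and by 0.14 without mouse 3. Npas2, a paralog of Clock that can take its place beside BMAL1, had 0.558, 2.59, 0.592 and 12.6 TPM. It was thus higher than Clock in mice 2 and 4, lower in mice 1 and 3, a mean difference of Clock minus Npas2 of 0.27 ± 1.70 (exact permutation p = 0.750, adjusted 0.833) that turned to -0.30 without mouse 1 and -0.13 without mouse 3, and was 0.84 without mouse 4. Arntl2, the paralog of Arntl, had 1, 214, 168 and 1 counts, so that mice 2 and 3 were above mice 1 and 4, as for Per2, to which Arntl2 was the nearest of 17 clock genes (0.42 apart at most in log2(TPM + 1), each profile centred on its mean).

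Nr1d1 and Dbp were each set against a factor of opposite effect at the same sequence. Rora, the ROR receptor that activates BMAL1, had 7.89, 7.27, 10.6 and 10.3 TPM, a range of 1.46 times, and only 3.63% of genes of 1 to 10 TPM varied less. Nr1d1 was lower than Rora in 4 of 4 mice, with Nr1d1 minus Rora at -1.10, -3.05, -0.17 and -3.50 in log2(TPM + 1) (mean -1.95 ± 1.58, exact permutation p = 0.13, adjusted 0.25). This mean rests on the libraries of mice 2 and 4 at 0 counts of Nr1d1, and was -0.63 over mice 1 and 3, the 2 mice with at least 10 counts of both. Nr1d1 and Nr1d2 together summed to 9.96, 14.8, 12.9 and 0.644 TPM, above Rora in mice 1, 2 and 3 and below it in mouse 4. Nfil3, which represses from the D-box, had 25.9, 26.2, 76.8 and 4.35 TPM. Dbp was below Nfil3 in 4 of 4 mice, by -3.62 ± 2.67 on average, but by only -0.02 in mouse 4, where Dbp was highest and Nfil3 lowest (exact permutation p = 0.13, adjusted 0.25). Without a length, or with that of the longest transcript, Dbp was the higher of the pair in mouse 4 (exact permutation p = 0.25), where it had 132 counts and Nfil3 91. Over the 2 mice with at least 10 counts of both, mice 1 and 4, the mean difference was -1.71. Bhlhe40, a repressor that competes at E-boxes, had 23.8, 16.4, 61.0 and 28.3 TPM, whereas its paralog Bhlhe41 had at most 23 counts in a library.

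Hlf and Ciart had 0 counts in all 4 libraries, and Rorb between 3 and 12 counts. Hlf is the PAR bZIP relative of Dbp and Tef, and Ciart a repressor of CLOCK and BMAL1. By counting error alone, a count of 0 allows up to 3 counts, which correspond to between 0.0689 and 0.132 per 1000000 counts of a library. Of the 15 genes that modify or receive the clock proteins, 12 had a median above 1 TPM and 8 were above it in every mouse. Btrc, which acts in the degradation of PERIOD proteins, was under it without mouse 1 or mouse 3. The casein kinases Csnk1d and Csnk1e, which phosphorylate PERIOD proteins, had 21.8 ± 18.3 and 3.81 ± 2.74 TPM (SD, n = 4). Fbxl21, which acts on the stability of cryptochromes, had 0 counts in all libraries. Nono, a partner of the PERIOD proteins, was the highest of this list with 45.6 ± 17.0 TPM. Besides Fbxl21, Usp2 and Prkaa2 were under the cutoff, Usp2 with 137, 0, 5 and 1 counts and Prkaa2 with 0, 0, 157 and 1 counts. With both lists, 17 of 26 genes passed the cutoff, against the 22.9% of all genes and 44.2% of protein-coding genes given above.

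**Figure D4:**
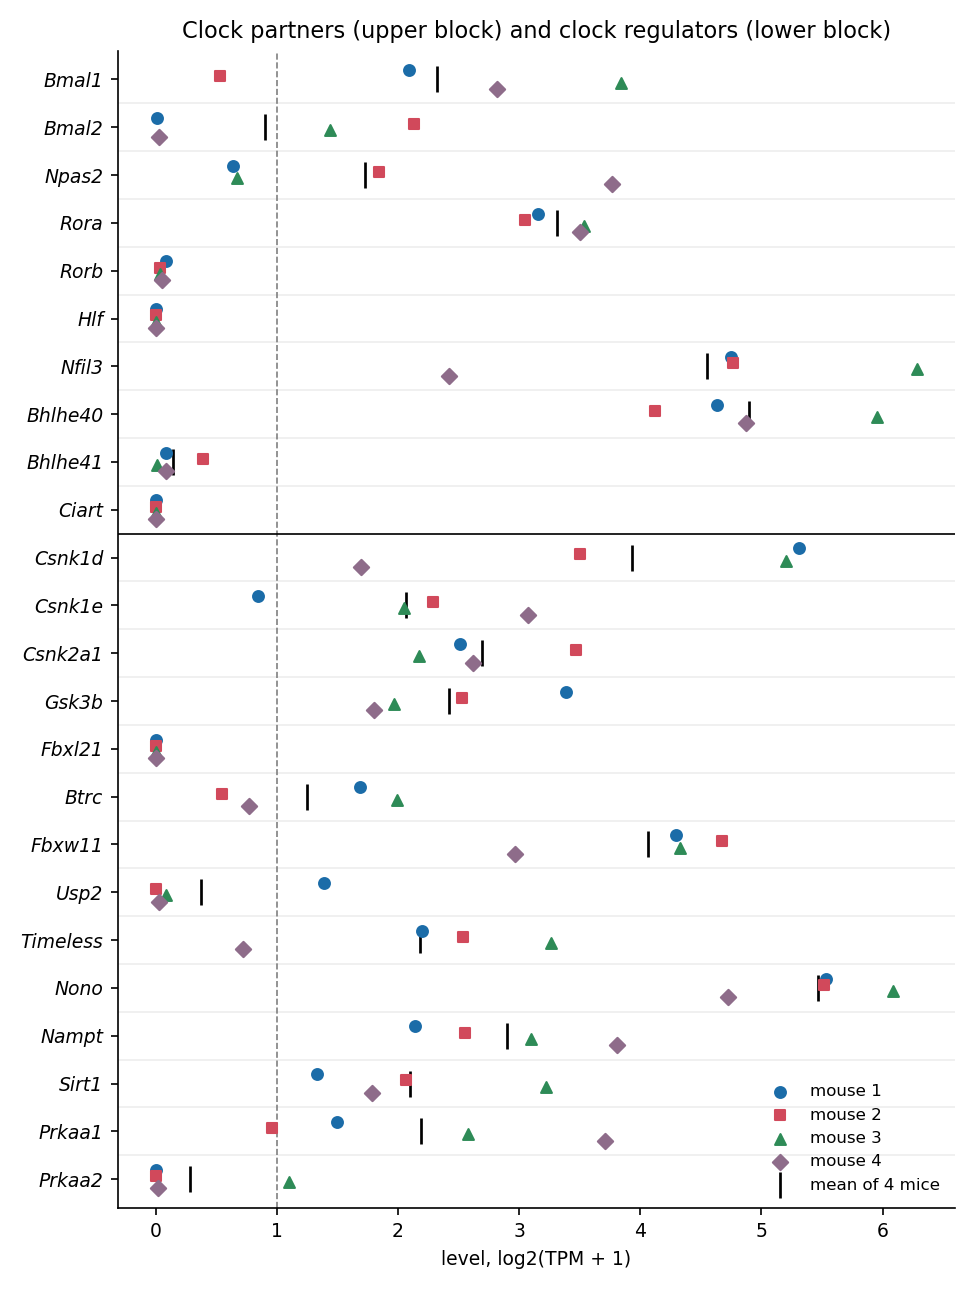
Levels as log2(TPM + 1) of clock partners (upper block, Bmal1 and Bmal2 standing for Arntl and Arntl2) and of clock regulators (lower block), 1 marker per mouse, with the mean of the log2 values as a black tick and 1 TPM dashed. Rora lies within 7.27 to 10.6 TPM in all mice, and Hlf, Ciart and Fbxl21 are at 0.

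The mouse with the highest level differed between the clock genes. Mouse 2 was highest for Per2, Per3, Cry1, Nr1d2 and Tef, mouse 3 for Per1, Cry2 and Nr1d1, mouse 1 for Clock and mouse 4 for Dbp. By the same measure, the largest difference between profiles centred on their mean in log2(TPM + 1), the gene nearest to Per3 among 17 clock genes was Tef and that nearest to Tef was Per3, 0.53 apart. Clock and Cry2 were nearest to each other in the same way, 0.66 apart. A pseudocount of 1 flattens the profiles of genes at low level and brings them closer together. By this measure the nearest gene to Cry1 was Bhlhe41, 0.49 apart, although Bhlhe41 had at most 0.308 TPM. Per3 and Tef had medians of 0.435 and 0.200 TPM, so their nearness, like that of Per2 and Arntl2, depends on the pseudocount. All these nearest profiles are descriptions over 4 mice that share their libraries.

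Per1 is also induced by glucocorticoids and by stimuli that raise immediate-early genes, and the femurs had been digested at 37 °C for 30 min. Most immediate-early genes were high in all libraries, with Fos at 1104, 1897, 2216 and 1258 TPM. Of their medians 12 of 12 were above 1 TPM, against 44.2% of protein-coding genes, and 10 of 12 genes were above 1 TPM in every mouse. Their summed TPM, mostly Fos and Junb, was 2330, 3956, 5577 and 2228 TPM in mice 1, 2, 3 and 4. In this sum mice 3 and 2 were above mice 1 and 4, as they were for Per1. The exceptions were Nr4a1, lowest in mouse 2 at 14.4 TPM, Jund, lowest in mouse 3 at 30.3 TPM, and Hspa1a and Hspa1b. Hspa1a had 33.8 TPM in mouse 1 and 6.53 TPM in mouse 3, and Hspa1b 5.15 and 0.0413 TPM. Of the genes that respond to glucocorticoids or cAMP, 7 of 8 had a median above 1 TPM, against the same 44.2% of protein-coding genes. Tsc22d3, which glucocorticoids induce, had 31.7, 76.7, 121 and 39.0 TPM, with the mice in the same order as for Per1. Dusp1 of this list and the immediate-early genes Fos, Fosb, Ier2 and Atf3 shared that order. Nr3c1, Fkbp5, Sgk1, Zbtb16, Creb1 and Crem did not. The share of all genes with that order was not counted. Sgk1, another glucocorticoid target, had 25.3, 18.2, 14.6 and 7.84 TPM, highest in mouse 1, where Per1 was lowest. Fkbp5, also a glucocorticoid target, had 1.83, 18.8, 2.52 and 0.184 TPM and was highest in mouse 2, followed by mouse 3. The part of these responses in Per1 was not tested.

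Niche and bone markers also differed between the mice. The summed niche stroma markers, mostly Cxcl12, were 1067, 4644, 2387 and 1243 TPM and highest in mouse 2 (by 5 of 6 markers, the exception being Prrx1, lowest there), as were Per2, Per3, Cry1, Nr1d2 and Tef. The summed osteoblast markers were 108982, 133635, 77792 and 168024 TPM and highest in mouse 4, as were Dbp and Npas2. This sum was mostly Bglap, at 156730 TPM in mouse 4, where Ibsp and Sp7 were lowest of the 4 mice at 10570 and 151 TPM. Adipocyte markers were highest in mouse 2 as well, 962 TPM where the other mice had 199 to 439 TPM. Their part in the levels of the clock genes was not tested.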

How the data were processed

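RNA-seq libraries of sorted bone marrow MSCs from 4 mice were used as a single group. Alignment by the authors was to GRCm39 in STAR, with at least 40% of bases of a pair aligned, and exons were counted in featureCounts of Subread 1.6.5. Raw counts were deposited for each mouse, whole numbers without normalization. No strand option is listed, so reads of overlapping genes on opposite strands cannot be told apart, and no molecular identifiers are described, so floors cover counting error only.

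TPM was computed with numpy 2.4.6 and pandas 2.3.3 from merged exon lengths of GENCODE M21 (GRCm38, not the build of the counts). For 4855 genes there was no length, and these were left out. The code was tested on simulated data. Shared exons were found with bedtools 2.31.1 and near-identical transcripts with BLAST 2.17.0 (95% identity, 100 bases). Differences between genes used a pseudocount of 1, an exact sign-flip permutation test and Benjamini-Hochberg adjustment. TMM factors came from edgeR 4.0.16.

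The genes, lists and pairs were chosen with earlier results of these data known. Named are the 10 genes, the genes of the pairs, genes overlapping them and the nearest profiles. Genes of the lists are named mainly where they were highest, lowest, absent or out of the order of their list. Some genes of the lists are counted but not reported here by name. Alternatives were another length, no length, other denominators, TMM, other cutoffs and summaries, another pseudocount, a count minimum, and each mouse left out.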

Additional observations from a re-analysis of the deposited data

Results flagged for a closer look

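In 4 of 29 values compared over the 4 mice, a single mouse stood apart: its gap to the nearest mouse, divided by the range of all 4, exceeded the 95% critical value of Dixon for 4 samples. For normally distributed values chance would flag about 1 in 20 such groups, or 1.45 of 29. TPM values with many zeros need not follow that rate, so the number flagged cannot be called more than chance gives. Tef was high in mouse 2, with 3.02 TPM against 0 to 0.375 TPM (gap 0.876). Npas2 was high in mouse 4, with 12.6 TPM against 0.558 to 2.59 TPM (gap 0.832). Bhlhe41 was high in mouse 2, with 0.308 TPM against 0.00861 to 0.0592 TPM (gap 0.831), which rests on 23 counts. The number of genes above 0 counts was low in mouse 2, at 16109 against 18683 to 18907 (gap 0.920).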

How the results depend on the processing

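The number of clock genes past the cutoff, 7, was 2 if 1 TPM was required of each mouse and 2 at a 5 TPM cutoff, and it lay between 6 and 7 with each mouse left out. That of the partners and regulators, 17, was 11 and 8 under the same settings and 16 to 17 with each mouse left out. These 2 settings are stricter by construction, and all other settings left both counts within 1.5 times. The direction of the mean held for 6 pairs under every alternative. Dbp minus Tef turned to -0.11 without a length and ranged from -0.37 to 1.09 with each mouse left out. Clock minus Npas2 ranged from -0.30 to 0.84, and Clock minus Bmal1 from -0.60 to 0.14, or 0.50 without a length. Nr1d1 minus Nr1d2 turned to 0.13 over the 2 mice with at least 10 counts of both. The cause was not tested. With a pseudocount of 0.1, Nr1d1 minus Rora was -3.60, Nr1d1 minus Nr1d2 -2.46, Per1 minus Per3 2.75 and Per1 minus Per2 1.84, and without a length Nr1d1 minus Rora was -4.16. Leaving each mouse out of the means of 4 partners and regulators was added after seeing the data. Without the 10 highest genes in the denominator the means rose, to 41.8 TPM for Cry1, 5.76 TPM for Per1 and 5.28 TPM for Clock. No p could pass 0.05 with 4 mice, so the p-values say nothing about stability. No paired comparison of conditions was possible because all libraries belong to a single group, whereas the genes of each pair were compared within each mouse. Low levels rest on few counts, and with 100 cells per library a gene at 0 counts cannot be called absent from the cells.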
